A study of Sus scrofa with 2 samples.

Results

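The differentiated suprabasal keratinocytes of pig skin were chosen by measured values, and 316 of 6998 cells were members. A cell was a member when KRT1 and KRT10 took at least 1% of its UMIs (unique molecular identifiers, each standing for 1 captured transcript), the collagens COL1A1, COL1A2 and COL3A1 together took under 1%, and the division genes TOP2A, CDK1, UBE2C and CDC20 had fewer than 5 UMIs. Only droplets with at most 4500 genes, 30000 UMIs and 10% of UMIs on the 13 mitochondrial protein genes were considered. The fresh library gave 103 members of 2775 cells and the cryopreserved library 213 of 4223.

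Both libraries were made with a 10x Genomics 3′ kit from enzymatically dissociated full-thickness dorsal skin of healthy, young male farm pigs, after removal of dead cells. The fresh cells had no treatment, whereas the others were frozen in serum with DMSO and thawed. Both samples carry the same extraction text, which describes freezing, but one of them is titled fresh and labelled as untreated. The exact age, the genotype and whether 1 animal gave both libraries are not given in the sources used here. With 1 library per condition, no test between conditions was possible, and preservation, library and animal cannot be told apart. The matrices held 4379 and 4860 droplets and summed to 53271738 UMIs (fresh) and 42217632 UMIs (cryopreserved). The libraries shared 6 droplet barcodes, and 0 of these belonged to a member.

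The epidermis is renewed from basal keratinocytes, which make KRT5, divide, and are anchored to the basement membrane by hemidesmosomes. Cells that leave the basal layer turn on KRT1 and KRT10, strengthen their desmosomes, and later make the cross-linked cornified envelope and the lamellar lipids that seal the skin surface. Notch signaling between neighboring cells is a known driver of this switch.

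KRT1 and KRT10 pair as a type II and a type I keratin, and KRTDAP is a small secreted protein of differentiating keratinocytes. The bases upstream of KRT10 and KRTDAP are shown because both are markers of these cells (the 6 markers are KRT1, KRT10, KRTDAP, SBSN, DSG1 and DSC1) with high levels in the members. The sequences were taken from RefSeq on Sscrofa11.1, the build of the files, and each run of 250 bases stops just before the annotated gene start. KRT10 is on the plus strand, upstream bases chr12:21641013-21641262. KRTDAP is on the minus strand, upstream bases chr6:44935922-44936171. Capitals mark matches on either strand to TATANA (TATA box), TGANTCA (AP-1), TTGCNNAA (C/EBP), AACNGGTT (GRHL) or GGGNGTG (KLF).
KRT10: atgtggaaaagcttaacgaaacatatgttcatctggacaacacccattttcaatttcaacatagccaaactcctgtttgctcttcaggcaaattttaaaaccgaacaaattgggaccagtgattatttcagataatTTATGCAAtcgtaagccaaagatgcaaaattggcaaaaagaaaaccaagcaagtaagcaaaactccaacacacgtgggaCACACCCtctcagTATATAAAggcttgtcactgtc
KRTDAP: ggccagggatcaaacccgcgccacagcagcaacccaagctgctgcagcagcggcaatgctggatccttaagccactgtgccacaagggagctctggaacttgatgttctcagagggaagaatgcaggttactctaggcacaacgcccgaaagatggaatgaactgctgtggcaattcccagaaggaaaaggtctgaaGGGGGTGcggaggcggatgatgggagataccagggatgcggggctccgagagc
KRT10 held C/EBP letters, then KLF letters, then overlapping TATA box letters near the start, and KRTDAP held KLF letters only. Of the 250 bases upstream of the other markers read, those of DSC1 held KLF letters and those of SBSN and DSG1 none of the 5 motifs. Over the same 250 bases of 19545 protein-coding genes, the TATA box letters occurred in 17.0%, AP-1 in 5.25%, C/EBP in 8.21%, GRHL in 1.39% and KLF in 28.1%. A match describes letters and is no evidence of binding. Among the other markers, SBSN (chr6:44960693-44966592) lies near KRTDAP (chr6:44932195-44935921), and the desmosomal cadherin genes DSC1 (chr6:115042225-115076097) and DSG1 (chr6:115237836-115272944) lie near each other.

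The label held in markers that the rule did not use, although cells chosen by 2 of a program's genes also differ in the others, so these values are a description. KRTDAP had at least 1 UMI in every member of both libraries. After thinning each cell to 2000 UMIs, which left out 2 fresh and 5 cryopreserved members, the share was 99.01% in fresh and 99.5% in cryopreserved members. In collagen-rich cells (at least 1% of UMIs on the 3 collagens, under 0.1% on KRT1 and KRT10 and on KRT5 and KRT15), which should lack KRTDAP, it was 0.695% and 0.902% (3.71% and 3.54% without thinning).

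The comparison cells were keratinocytes low in KRT1 and KRT10, with under 0.1% of UMIs on these genes and at least 0.1% on the basal keratins KRT5 and KRT15, 338 fresh and 616 cryopreserved cells. KRTDAP was detected in 10.8% and 9.14% of them after thinning (28.1% and 21.3% without). DSG1, a cadherin of the suprabasal desmosome, was detected in 87.1% and 88.5% of thinned members against 42.5% and 35.5% of thinned low cells (unthinned 100% and 99.1% against 84.0% and 72.6%). DSC1, its partner cadherin, was detected in 55.4% and 61.1% against 6.93% and 4.32% (unthinned 96.1% and 93.9% against 29.9% and 18.5%). SBSN, a secreted protein of the upper layers, was detected in 47.5% and 51.0% against 3.31% and 7.31% (unthinned 91.3% and 86.4% against 16.3% and 15.7%). Median depth was 18895 UMIs in fresh and 11469 in cryopreserved members, and 14183 and 8320 UMIs in low cells.

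KRT1 and KRT10 took 1.01% to 15.7% of the UMIs of fresh members (median 4.02%) and 1.01% to 16.3% in cryopreserved members (median 4.27%). Within 0.25 percentage points above the 1% limit lay 4 fresh and 11 cryopreserved members, and within 0.2 points below it lay 3 and 20 cells that met the other limits. KRT5 and KRT15 took a median of 0.812% in fresh and 0.470% in cryopreserved members. In 74 fresh and 154 cryopreserved members they still took at least 0.1%, and 4 and 16 members had no UMI of either. From 1 to 4 UMIs of the division genes were found in 15 fresh and 32 cryopreserved members.

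**Figure D1:**
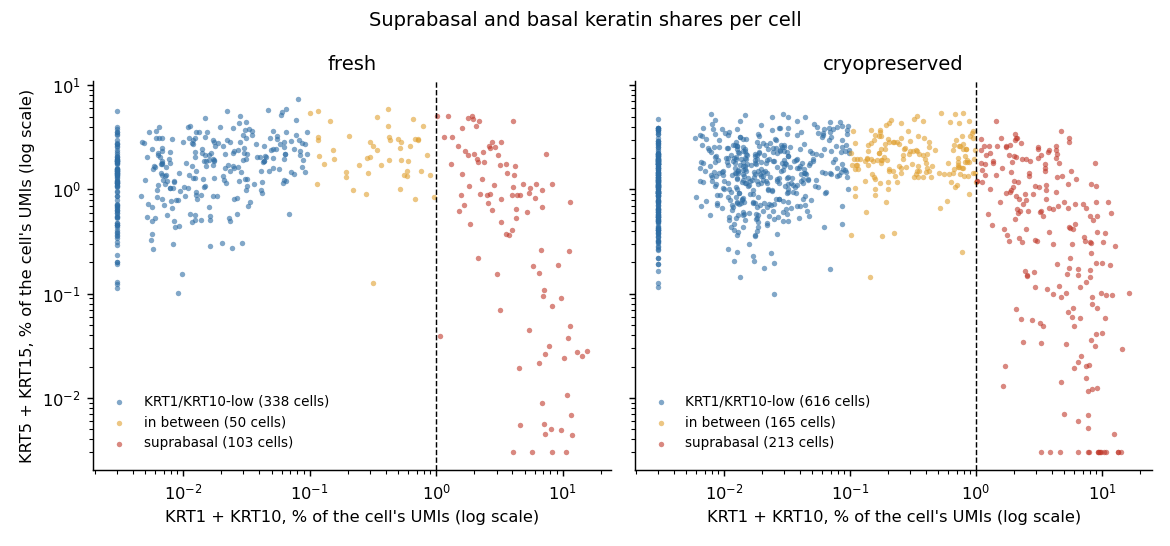
Each point is 1 keratinocyte, with the percent of UMIs on KRT1 and KRT10 (horizontal, log axis) and on KRT5 and KRT15 (vertical, log axis) in the fresh and the cryopreserved library. Cells with no UMI of a pair are drawn at the edge, and the dashed line is the 1% limit, beyond which the 103 fresh and 213 cryopreserved members extend from basal keratin levels like those of the other keratinocytes down to none.

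The droplet limits removed more droplets from the fresh library, over all droplets as well as among those rich in KRT1 and KRT10. Of all droplets, 2775 of 4379 fresh and 4223 of 4860 cryopreserved ones lay within the limits, so this loss was not particular to the suprabasal cells. Before any limit, KRT1 and KRT10 reached 1% in 181 fresh and 251 cryopreserved droplets. Of these, 76 fresh (42.0%, exact 95% binomial interval 34.7 to 49.5%) and 36 cryopreserved droplets (14.3%, interval 10.3 to 19.3%) lay outside the limits. The gene maximum was exceeded by 65 (35.9%) and 32 (12.7%), the UMI maximum by 30 and 5, and the mitochondrial maximum by 11 and 4. Of the droplets within the limits, the division rule then removed 2 and 2 and the collagen rule 0 and 0.

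**Figure D2:**
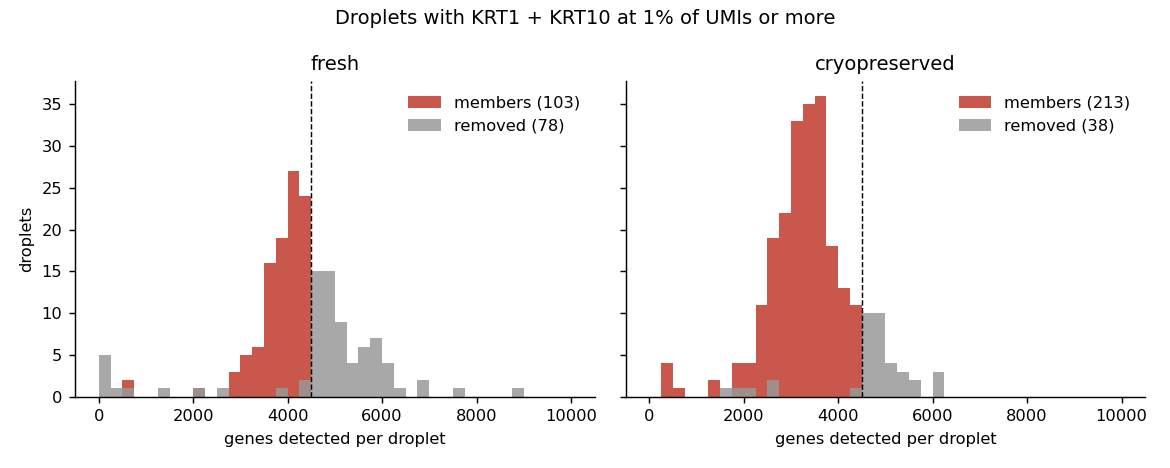
Number of droplets (vertical axis) by genes detected (horizontal axis) among all droplets with at least 1% of UMIs on KRT1 and KRT10, members and removed droplets shown separately, with the 4500-gene limit dashed. Above that limit lie 65 of 181 fresh and 32 of 251 cryopreserved droplets.

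Members were 3.71% of fresh cells (exact 95% binomial interval 3.04 to 4.48%) and 5.04% of cryopreserved cells (interval 4.40 to 5.75%), a difference of 1.33 percentage points (Newcombe interval 0.344 to 2.28). As a share of keratinocytes (members, low cells and those in between) they were 21.0% (interval 17.5 to 24.9%) and 21.4% (interval 18.9 to 24.1%). That difference was 0.451 points (interval -4.08 to 4.74). All such intervals cover counting error only, and the spread between libraries of 1 condition was not measured.

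Cryopreserved members held fewer UMIs. UMIs per member ran from 1536 to 26004 in the fresh library (median 18895) and from 527 to 22029 in the cryopreserved library (median 11469), so the cells overlapped, and the ratio of medians was 0.607. In the low keratinocytes that ratio was 0.587. Median genes per member were 3987 and 3277, a ratio of 0.822. After thinning to 2000 UMIs the medians were 1012 and 1062 genes, a ratio of 1.05, so the order turned once depth was equal. The median mitochondrial share was 3.83% in fresh and 4.12% in cryopreserved members.

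The rule set a minimum for the sum of KRT1 and KRT10 and did not use their balance, which differed between the libraries. Fresh members held 61696 KRT10 and 34207 KRT1 UMIs, a ratio of 1.80, and cryopreserved members 65038 and 59968, a ratio of 1.08. Within cells, the median KRT10 percent of both was 65.3% in fresh and 52.1% in cryopreserved members. The fresh ratio was the higher one in each of 3 ranges of the KRT1 and KRT10 share (1 to 2%, 2 to 5%, and 5% or more), at 2.11, 1.81 and 1.78 against 1.22, 1.06 and 1.09. It was also the higher one in cells between the low cells and the members (2.004 against 1.44) and in low cells (7.18 against 5.41, from 107 and 173 KRT1 UMIs). In collagen-rich cells, with 90 and 85 KRT1 UMIs, the order was the other way (4.32 against 5.40).

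Levels in suprabasal cells were set against those in low keratinocytes as CPM (summed UMIs per 1000000 UMIs) scaled by TMM factors, and a gene was called when it was at least 2-fold apart in the same direction in both libraries. Of 8816 genes with at least 100 UMIs, 340 were higher in suprabasal cells (3.86%) and 782 lower (8.87%), and the median log2 ratio was -0.06 in fresh and 0.01 in cryopreserved cells. Scaling by total UMIs moved every log2 ratio by -0.23 in fresh and -0.16 in cryopreserved cells and gave 239 higher and 988 lower genes. In what follows, pairs of values are fresh then cryopreserved, and CPM and log2 ratios refer to this comparison. Because members were chosen by measured keratins, no test was made. Counts by list stand beside the 3.86% higher and 8.87% lower over all genes, and nothing is read from 0 or 1 call in a direction.

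Of 11 early differentiation genes measured besides KRT1 and KRT10, 9 were higher and 0 lower. KRTDAP stood at 10523 and 9625 CPM in suprabasal cells against 93.7 and 93.99 CPM in low cells, 112-fold and 102-fold higher. DSC1 stood at 579 and 616 CPM against 44.4 and 31.7 CPM, and SBSN at 508 and 532 CPM against 30.7 and 53.2 CPM. All 3 were thus clear of the low cells in both libraries. DMKN, a secreted epidermal protein, was higher by 3.75 and 3.23 (log2), and LY6D, a Ly6-family surface protein, by 2.82 and 2.93. The calcium-binding protein CALML5 had 92 and 263 UMIs in members against 3 and 1 in low cells, log2 ratios of 6.48 (95% counting interval 4.89 to 8.79) and 9.35 (interval 6.86 to 14.66). The 2 genes not called were the keratins KRT2 (1.13 and 0.77) and KRT80 (0.31 and 0.84).

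Of 10 cornified envelope genes 7 were higher and 0 lower. CSTA, the protease inhibitor cystatin A, stood at 798 and 687 CPM against 12.02 and 10.9 CPM. SPRP, a proline-rich protein, stood at 887 and 750 CPM against 12.9 and 39.9 CPM. TGM1, the membrane transglutaminase that cross-links the envelope, had log2 ratios of 2.99 and 2.71, and the scaffold protein EVPL 1.51 and 2.09. TGM3, a second transglutaminase, was not called (0.64 and 1.16). Involucrin (IVL), an early envelope precursor, had 73 UMIs in fresh members, of which 1 cell held 60.3%, and 41 in cryopreserved members. Its log2 ratios were 7.74 (95% counting interval 5.21 to 13.06) and 1.32, from 1 and 41 UMIs in low cells.

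Of 11 desmosome genes 6 were higher and 1 lower. The lists overlap, and the higher genes DSG1 and DSC1 also count among the early differentiation genes. DSG1 stood at 1403 and 1379 CPM against 293 and 247 CPM. The tetraspan protein PERP had log2 ratios of 1.74 and 1.58, and the plaque proteins PKP1, JUP and DSP had 1.22 and 1.73, 1.17 and 1.17, and 1.04 and 1.21. With total UMIs in place of TMM factors these 3 plaque proteins were not called, and 3 desmosome genes were higher. PKP2 was the 1 lower gene (-1.42 and -1.57), whereas the cadherins DSG3 (0.66 and 0.78) and DSC2 (0.56 and 0.60) were not called. Of 8 tight junction genes, CLDN1 (1.33 and 1.45) and OCLN (2.53 and 1.55), which seal the space between cells, were higher and 0 were lower. Of 4 gap junction genes 0 were called. GJB6, a connexin, had 0 UMIs in members of both libraries and 6 and 267 in low cells, which makes it at least 35.8-fold lower in cryopreserved members at a floor of 3 UMIs per sum.

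Of 16 hemidesmosome and basement membrane genes 0 were higher and 12 lower, with median log2 ratios of -2.08 and -1.64. COL17A1, the transmembrane collagen of the hemidesmosome, stood at 156 and 198 CPM against 1564 and 1417 CPM. Integrin ITGB4 stood at 24.2 and 24.2 CPM against 290 and 282 CPM. Its partner ITGA6 had log2 ratios of -1.93 and -1.81, and the linker DST -3.16 and -3.26. Of 9 basal keratinocyte genes 6 were lower and 0 higher. The low cells were chosen for KRT5 and KRT15, so nothing is read from these, and of the remaining 7 genes 5 were lower. KRT15 stood at 164 and 60.1 CPM against 2207 and 1841 CPM, and 1 fresh cell held 47.6% of its UMIs in fresh members. TP63, the transcription factor that maintains the basal layer, stood at 413 and 426 CPM against 1225 and 932 CPM. KRT5 was not called, at 12766 and 9007 CPM against 16127 and 13935 CPM.

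Of 20 barrier lipid genes 12 were higher and 1 lower. ABCA12, the transporter that loads lipids into lamellar granules, had 178 and 341 UMIs in members against 4 and 1 in low cells, log2 ratios of 7.02 (95% counting interval 5.64 to 8.91) and 9.73 (interval 7.24 to 15.04). The fatty acid hydroxylase CYP4F22 stood at 38.1 and 48.4 CPM against 3.32 and 1.34 CPM. ELOVL4, which makes very long fatty acids, had log2 ratios of 2.65 and 2.72, and SULT2B1, the cholesterol sulfotransferase, 4.81 and 4.32. The ceramide synthases were called in opposite directions, CERS3 at 1.5 and 1.52 and CERS2 at -1.04 and -1.17.

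Of 17 cholesterol synthesis genes 14 were higher and 0 lower, with median log2 ratios of 1.34 and 1.88. IDI1, the isopentenyl isomerase, stood at 382 and 378 CPM against 57.6 and 57.1 CPM. HMGCS1, which makes HMG-CoA, had log2 ratios of 2.13 and 2.17, and the squalene epoxidase SQLE 1.34 and 1.92. The regulator SREBF2 was not called (0.56 and 0.94). With total UMIs 10 of the list were called higher.

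Of 23 transcription factors of differentiation 6 were higher and 2 lower, the latter near the 8.87% lower over all genes. GRHL3, a grainyhead factor of barrier formation, stood at 147 and 211 CPM against 15.1 and 19.8 CPM. CEBPA stood at 137 and 159 CPM against 19.5 and 22.8 CPM. KLF4 (log2 ratios 1.68 and 1.53), MAF (1.37 and 1.86), GRHL1 (1.20 and 1.07) and PRDM1 (1.0 and 1.20) were the other higher factors, and TFAP2B (-1.79 and -1.72) and ELF3 were lower. With total UMIs GRHL1 and PRDM1 were not called.

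In the Notch list 3 of 11 genes were higher and 3 lower, and among the lower genes were the ligands DLL1 and JAG2. DLL1 had 1 and 4 UMIs in members against 328 and 408 in low cells, log2 ratios of -6.81 (95% counting interval -12.12 to -4.32) and -5.36 (interval -7.24 to -3.99). JAG2 had 2 and 2 UMIs against 202 and 368, log2 ratios of -5.11 (interval -8.17 to -3.24) and -6.21 (interval -9.26 to -4.35). The glycosyltransferase MFNG was the other lower gene (-2.32 and -2.67). The receptor NOTCH3 (1.70 and 1.90), the transcriptional target HES1 (1.5 and 1.69) and the related HES2 (2.07 and 1.95) were higher. The ligand JAG1 (-0.04 and 0.10) and the receptor NOTCH1 (0.96 and 0.92) were not called.

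**Figure D3:**
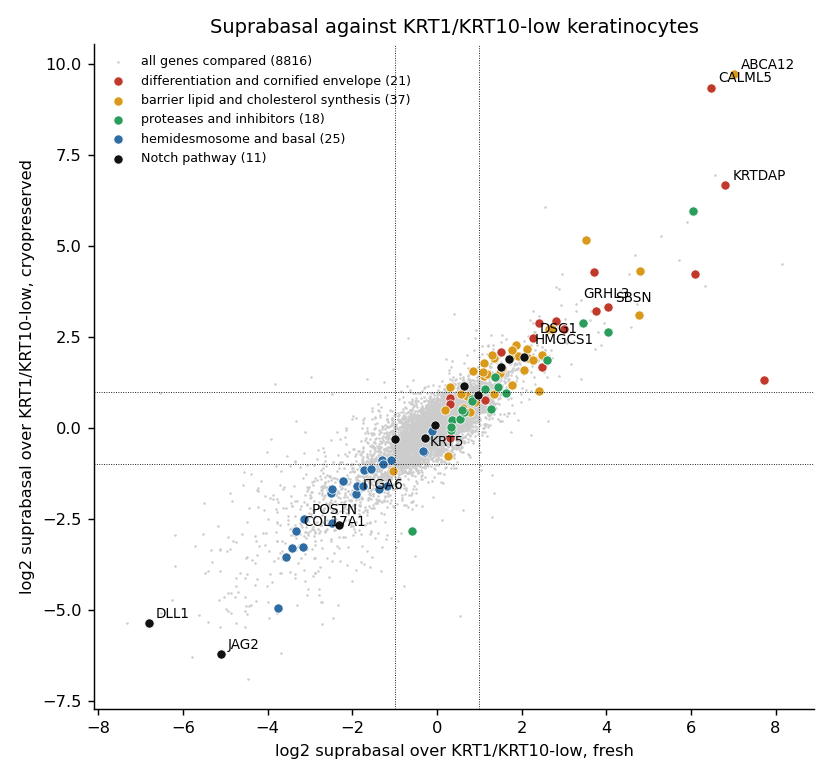
Log2 ratio of suprabasal over KRT1- and KRT10-low keratinocytes in the fresh (horizontal axis) and cryopreserved library (vertical axis), 1 point per gene, with all 8816 genes compared in grey, listed genes in color, 2-fold limits dotted, and genes with 0 UMIs drawn at their bound. KRTDAP (6.81 and 6.68) lies at the upper right and COL17A1 (-3.32 and -2.84) at the lower left.

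Of 18 proteases and inhibitors 7 were higher and 0 lower, among them the kallikreins KLK8 (log2 ratios 4.03 and 2.65) and KLK10 (3.45 and 2.88) and the kallikrein inhibitor SPINK5 (1.36 and 1.41). Of 10 cytokines and chemokines 4 were lower and 0 higher, with CXCL2 at -3.35 and -2.43, whereas the skin-homing chemokine CCL27 was not called (0.59 and 0.76). Of 6 S100 genes S100A6 was lower (-1.12 and -1.37) and 0 were higher. Of 4 follicle and wound genes SOX9, LGR5 and PTHLH were lower and KRT79 higher. The hormone gene PTHLH had 0 UMIs in members against 121 and 254 in low cells, at least 13.8-fold and 34.0-fold lower at a floor of 3 UMIs per sum. KRT79, a keratin of the follicle opening, had 2 UMIs in 1 fresh member and 246 in 8 cryopreserved members. Of 13 immediate early, 12 heat shock and 12 mitochondrial genes 0 were called, beside 3.86% higher and 8.87% lower over all 8816 genes. Nothing is read from these counts of 0. Of 7 division genes MCM2 and MCM5 were lower. Members and low cells were both limited to fewer than 5 UMIs of 4 division genes, of which CDC20 is among the 7, so nothing is read from this list. With total UMIs 5 of the proteases and inhibitors were called higher.

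The 12 highest genes of the comparison also held SULT1E1, RHBG, MT4, CPSF6, POF1B, DGAT2 and LY6E. The estrogen sulfotransferase SULT1E1 had 98 and 150 UMIs in members against 0 and 0 in low cells, at least 95.4-fold and 124-fold higher at a floor of 3 UMIs per sum. MT4, the metallothionein of stratified epithelia, stood at 767 and 631 CPM against 19.7 and 16.3 CPM. DGAT2, an enzyme of triglyceride synthesis, had 97 and 83 UMIs against 1 and 9, log2 ratios of 8.15 (95% counting interval 5.63 to 13.46) and 4.52 (interval 3.53 to 5.70). Among the 12 lowest, besides DLL1 and JAG2, were MLPH, NRG1, IGFBP6, CSPG4, PDPN, SERPINH1, F3 and ITGA2. The growth factor NRG1 had log2 ratios of -7.33 (95% counting interval -9.21 to -5.97) and -5.35 (interval -6.01 to -4.76), from 4 and 23 UMIs in members. Tissue factor (F3) was 30.5-fold and 32.9-fold lower, and the collagen-binding integrin ITGA2 27.1-fold and 40.6-fold lower, in CPM.

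Members also differed among themselves along the KRT1 and KRT10 share. The range of 1 to 2% held 20 fresh and 40 cryopreserved cells, 2 to 5% held 43 and 83, and 5% or more held 40 and 90. Levels here are UMIs per 1000000 UMIs other than KRT1 and KRT10 (keratin-free CPM), given from the lowest to the highest range. Of 5284 genes with at least 100 UMIs, 103 were at least 2-fold higher in the highest than in the lowest range in both libraries (1.95%) and 104 lower (1.97%). With KRT1 and KRT10 kept in the total, 79 were higher and 132 lower, and without the highest cell of each gene 192 and 91. The latter step drops 1 cell per range, a larger share of the lowest range, which holds fewer cells, so nothing is read from that shift. Median UMIs per cell were 16644, 18512 and 20073 in the fresh and 10847, 11497 and 11908 in the cryopreserved ranges. With each cell thinned to 2000 UMIs, 23 of 961 genes were higher and 21 lower.

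KRTDAP stood at 4332, 7060 and 15264 keratin-free CPM in fresh and 4345, 7319 and 14554 in cryopreserved members, against 97.8 and 102 in low cells. DSC1 stood at 282, 398 and 811 in fresh and 361, 482 and 883 in cryopreserved members. DSG1 was less steep, at 863, 1153 and 1688 and at 938, 1279 and 1724, and was not called. The range-ranked genes TGM1, CALML5 and DGAT2 had few UMIs in the lowest range. TGM1 had 1 UMI in the lowest range of each library and 34 and 46 in the highest. CALML5 had 3 and 6 UMIs in the lowest and 76 and 211 in the highest range, and DGAT2 0 and 0 against 78 and 65. CSTA stood at 248, 468 and 1263 keratin-free CPM in fresh and 332, 494 and 1057 in cryopreserved members, against 12.6 and 11.8 in low cells. SPRP, with UMIs in 40 of 103 and 68 of 213 members, stood at 785, 939 and 742 keratin-free CPM in fresh and 688, 947 and 616 in cryopreserved members, against 13.4 and 43.2 in low cells. GRHL3 stood at 74.5, 165 and 139 and at 170, 251 and 199.

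Some genes ran the other way, KRT5, KRT15, POSTN, COL17A1, DST, ITGA3 and ITGA6 of the basal and hemidesmosome lists and PTGS2, PHLDB2 and SLC1A5 by rank. KRT5 stood at 26897, 13949 and 3172 keratin-free CPM in fresh and 17242, 11338 and 3540 in cryopreserved members, beside 16842 and 15081 in low cells, which were chosen for KRT5 and KRT15. COL17A1 stood at 344, 170 and 32.4 in fresh and 495, 226 and 51.1 in cryopreserved members. PTGS2, the inducible cyclooxygenase, stood at 807, 106 and 45.1 and at 415, 256 and 29.6. KRT3, a keratin gene on the chromosome of KRT1, ranked among the highest, but 1 cell held 98.6% of its UMIs in fresh and 94.8% in cryopreserved members.

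By list, 6 of 9 early differentiation, 5 of 16 barrier lipid, 5 of 15 cholesterol, 3 of 16 protease and inhibitor, 2 of 12 immediate early and 1 of 19 transcription factor genes were higher along the ranges, and 0 lower. Other lists had calls both ways. Of 9 cornified envelope genes TGM1 and CSTA were higher and S100A3 lower, and of 10 desmosome genes DSC1 was higher and DSG2 lower. The immediate early genes were FOS and FOSB. FOS, a subunit of AP-1, stood at 1105, 2268 and 2851 keratin-free CPM in fresh and 1988, 2419 and 5294 in cryopreserved members. In the hemidesmosome list 4 of 11 genes were lower, in the basal list 3 of 7 in the S100 list 3 of 6 (S100A2, S100A6 and S100A10) and in the cytokine list 2 of 6 (CXCL2 and HBEGF), and 0 were higher. In the tight junction, gap junction, Notch, follicle, heat shock, division and mitochondrial lists 0 were called. Among the lists of other cell types, 1 of 3 sebaceous and sweat gland genes was higher and 1 of 4 fibroblast genes lower. Over all 5284 genes the shares were 1.95% higher and 1.97% lower, so nothing is read from lists with 0 or 1 call.

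**Figure D4:**
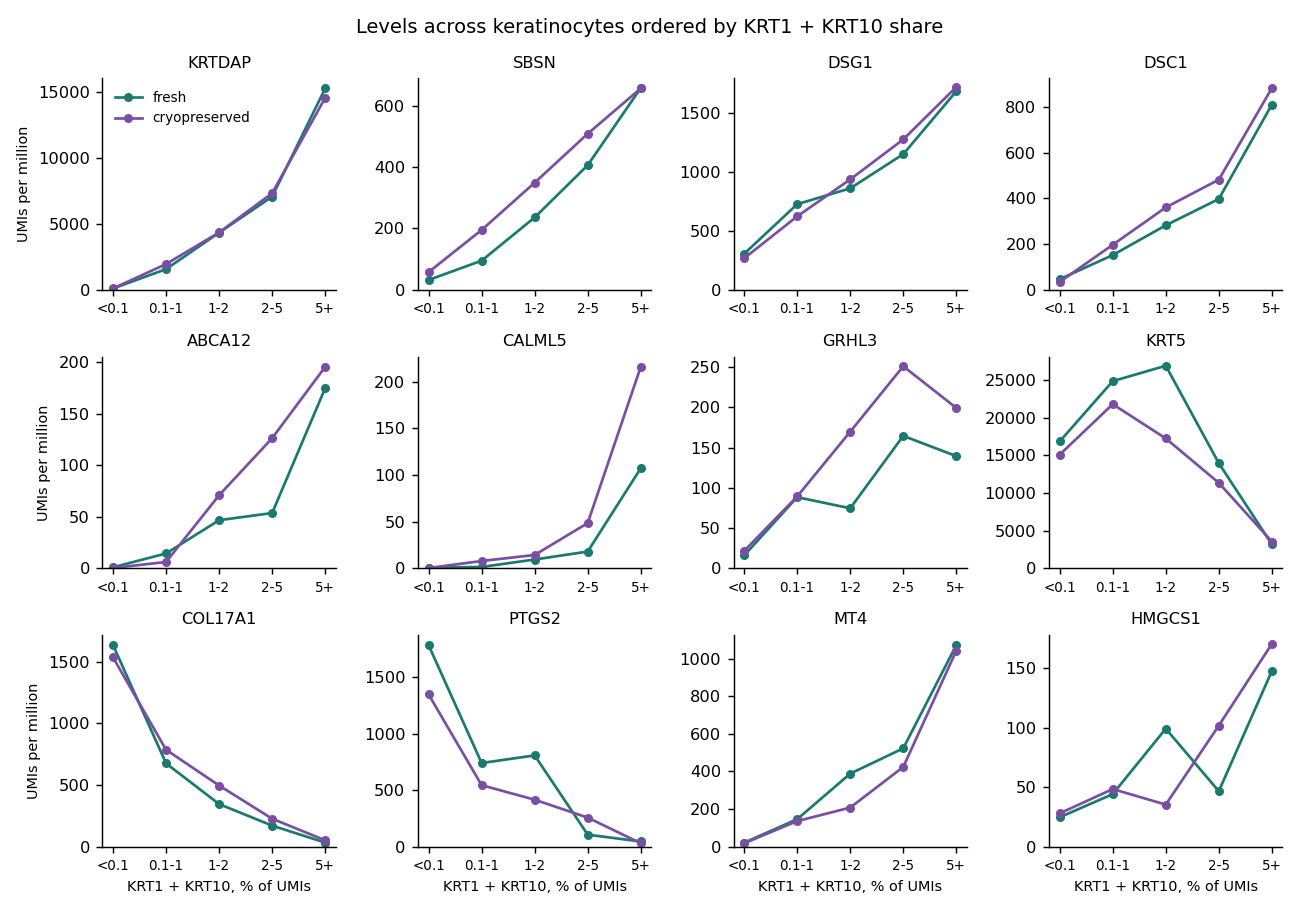
Level of 12 genes (vertical axes, UMIs per 1000000 UMIs other than KRT1 and KRT10) in low cells, cells in between and the 3 ranges of members (horizontal axis, by percent of UMIs on KRT1 and KRT10) for the fresh and cryopreserved library. KRTDAP was highest in the last range (15264 and 14554), and KRT5 was lowest there (3172 and 3540).

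Cryopreserved and fresh members were then compared on the CPM scale. Of 5286 genes with at least 100 UMIs, 44 were at least 2-fold higher (0.832%) and 18 at least 2-fold lower (0.341%) in cryopreserved members. The median absolute log2 ratio was 0.21. Total UMIs in place of TMM factors moved every log2 ratio by 0.12 and gave 76 higher and 11 lower genes, and the mean of per-cell CPM gave 85 and 14. DESeq2 size factors gave 40 higher and 20 lower. Without the highest cell of each gene they were 63 and 16, though this drops 1 of 103 fresh and 1 of 213 cryopreserved cells. After thinning to 2000 UMIs 8 were higher and 8 lower of 963 genes, and with a minimum of 500 UMIs 6 and 7 of 1390. Both of these settings compare far fewer genes, so they do not show whether the excess of higher genes held for the rest. In 30 of the 62 genes 1 cell held over 10% of the UMIs of a library, 25 higher and 5 lower. Of 59 with enough UMIs in low keratinocytes, 11 were also 2-fold apart there in the same direction.

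Of 11 early differentiation, 10 desmosome, 16 barrier lipid, 15 cholesterol, 19 transcription factor and 12 heat shock genes, 0 were called in either direction, and of 9 cornified envelope genes IVL was lower. With so few genes called over all features, these counts are near the background and nothing is read from them. KRTDAP had a log2 ratio of cryopreserved over fresh of -0.13 (95% counting interval -0.16 to -0.10), DSG1 -0.02 and IDI1 -0.02. KRT1 had 0.27 and KRT10 -0.46. In the other lists KRT15 and the mitochondrial gene ND3 were lower, and NR4A1, S100A12, CXCL2, KRT79 and FASN were higher. S100A12 had 15 fresh and 311 cryopreserved UMIs, of which 1 cryopreserved cell held 91.3%. KRT79 rested on few cells as well, since 5 cells held 95.9% of its 246 cryopreserved UMIs. Of KRT15, 1 cell held 47.6% of the 271 fresh UMIs and 1 cell 29.2% of the 144 cryopreserved UMIs. NR4A1, an immediate early nuclear receptor, had 118 and 369 UMIs.

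The lower genes in which no cell held over 10% included the ribosomal protein genes RPS20 and RPL7, whose reads may also match near-identical copies. RPS20 stood at 2445 CPM in fresh and 864 CPM in cryopreserved members, a log2 ratio of -1.50 (95% counting interval -1.58 to -1.42), against -0.92 in low cells. RPL7 had -1.44 in members and -0.96 in low cells. ND3, a mitochondrial subunit of complex I, stood at 691 and 181 CPM, a log2 ratio of -1.93, and the methyltransferase PRMT2 at 78.1 and 13.8 CPM, a ratio of -2.50. In low cells these were -2.10 and -3.39. COL19A1 (-1.06) was also lower, and 4 of the 10 genes had no symbol.

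The higher genes by the same rule included NEK9, SLC3A1, PLCB3, SERF2, DUSP22 and FASN, and 3 of the 10 had no symbol. FASN, the fatty acid synthase, stood at 130 CPM in fresh and 291 CPM in cryopreserved members, a log2 ratio of 1.17 (95% counting interval 0.95 to 1.40), against 0.62 in low cells. NEK9, a mitotic kinase, had 1.51 in members and 0.31 in low cells. SLC3A1, a subunit of a cystine transporter, had 1.31 and 1.23.

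**Figure D5:**
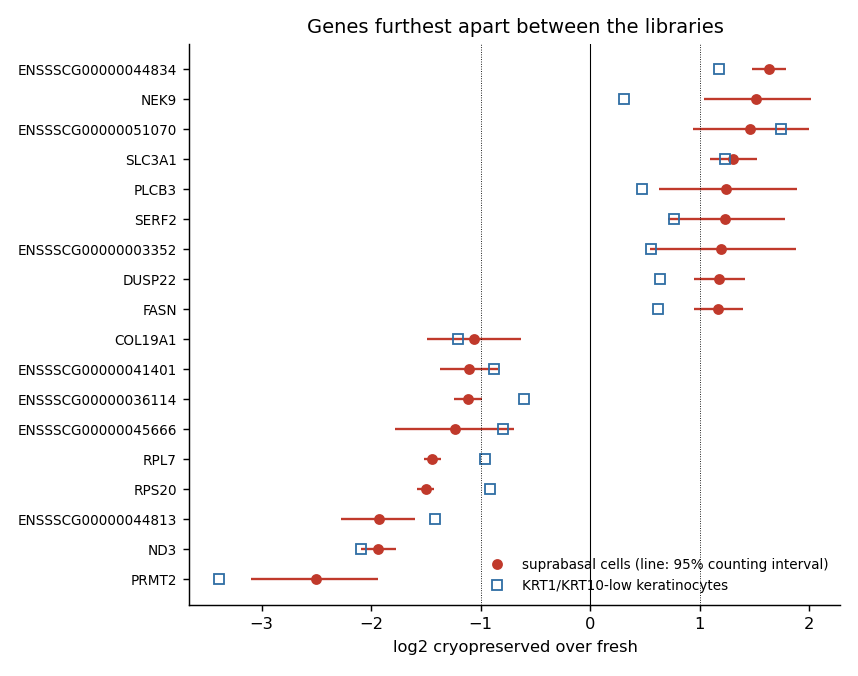
Log2 ratio of cryopreserved over fresh (horizontal axis) for genes from the 10 highest and 10 lowest in which no cell held over 10% of the UMIs, with 95% counting intervals in suprabasal cells and squares for KRT1- and KRT10-low cells. PRMT2 (-2.50) and ND3 (-1.93) are the lowest named genes in members and are also lower in low cells (-3.39 and -2.10).

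The 5 Merkel cell markers found were all at 0 in members of both libraries, against 2 and 39 UMIs in low cells. The 13 immune markers summed to 0.000915% of UMIs in fresh and 0.00307% in cryopreserved members, against 0.00201% and 0.00374% in low cells, led by TYROBP with 7 and 37 UMIs, and 6 and 2 of them were at 0, CD3D and CD207 in both. The most immune UMIs in 1 member were 4 and 33. The 7 endothelial markers summed to 0.00129% and 0.00218%, against 0.00238% and 0.00454% in low cells, led by PECAM1, with CLDN5 and LYVE1 at 0 in both. The 7 melanocyte markers summed to 0.00678% and 0.00657%, against 0.0119% and 0.00959% in low cells, led by MITF with 116 and 157 UMIs, with MLANA, TYR and TYRP1 at 0 in both. The 8 fibroblast markers, which include the collagens of the rule, summed to 0.0236% and 0.0207%, against 0.0450% and 0.0445% in low cells. The 6 mural markers summed to 0.00974% and 0.0209%, against 0.00452% and 0.00995% in low cells, led by NOTCH3, with RGS5 at 2 and 55 UMIs, the latter in 2 cells, and the most mural UMIs in 1 member were 6 and 88. Of 8 sebaceous and sweat gland markers found 4 were at 0, and the list summed to 0.0357% and 0.0472%, against 0.0276% and 0.0295% in low cells, led by PLIN2 and FASN. Of its 3 measured genes FASN and SCD were called higher than in low cells, though not with total UMIs, and 23 fresh and 28 cryopreserved members held at least 10 UMIs of the list. The erythrocyte gene HBB had 288 and 427 UMIs, with log2 ratios against low cells of -0.07 and -0.06. The part of these sources in the results was not tested.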

How the data were processed

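The authors deposited, for each library, a filtered matrix of UMI counts (whole-number counts per gene and cell). The submitters' processing notes name Cell Ranger 4.0.0, STAR 2.5.1b and Sscrofa11.1. For each library, the UMI counts of a class of cells were added up, scaled to CPM with TMM factors (edgeR 4.0.16, R 4.3.3), and compared without a test, as each condition is 1 library. Genes needed 100 UMIs over the sums compared, and a call was 2-fold. Counting intervals are exact (binomial, 95%) and ignore that cells vary. Sums of 0 were set to 3 UMIs. Other steps used Python 3.11.15, numpy 2.4.6, scipy 1.17.1, pandas 2.3.3 and scanpy 1.11.5. Only the ratios, the 2-fold limit and the counting intervals were checked on simulated data, as summed counts scaled by total UMIs. DESeq2 1.42.0 size factors were an alternative.

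The members and lists were chosen with earlier results of these data known. The 27 lists held 421 different symbols, some shared between lists. Of these symbols 354 were found, and 14417 of 31908 features had an ID only. Beyond the lists, named genes were the 12 highest and 12 lowest against low cells, the 10 and 10 between conditions in which no cell held over 10% of the UMIs, and the 6 and 6 along the ranges. Scrublet marked 8 of 2775 and 8 of 4223 cells (0.288% and 0.189%) and 0 members. It was taken as uninformative and no doublets were removed, although cells had been gated by scatter. The letters of the TATA box motif were widened after an upstream sequence was seen. Some genes that the rule names, and some upstream sequences, are not reported here.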

Additional observations from a re-analysis of the deposited data

Results flagged for a closer look

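Of 231 listed genes, 2 had a log2 ratio of suprabasal over low keratinocytes whose counting intervals lay on opposite sides of 0 in the libraries. For NR4A1 the fresh value was -1.07 and the cryopreserved value 0.27. For DNAJA1, a heat shock co-chaperone, they were 0.19 and -0.44. The difference between the libraries was not tested for either gene.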

How the results depend on the processing

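No paired analysis was possible because each condition is 1 library and the labels give no replicate numbers. The difference in the share of members stayed between 1.04 and 1.85 percentage points, and the ratio of median UMIs between 0.578 and 0.623, over 7 alternatives each. The ratio of genes per cell went from 0.822 to 1.05 after thinning to 2000 UMIs. Counts of called genes moved with the minimum of UMIs and with thinning, which change how many genes are compared. Of the 62 genes between conditions, 36 were also called with all barcodes, 38 with KRT1 and KRT10 at least 0.5% and 43 with at least 2%. Against low cells (1122 genes) they were 460 after thinning, 1724 with a minimum of 20 UMIs and 463 with 500. Between conditions (62 genes) they were 16 after thinning, 497 and 13 with those minimums, and 99 with the mean of per-cell CPM, for which the cause was not tested. Along the ranges (207 genes) they were 44 after thinning and 559 and 42 with those minimums. Without its highest cell, KRT3 along the ranges went from 5.99 to -2.73 in fresh and from 4.28 to -1.21 in cryopreserved members. RHBG went from 3.72 to -0.90 in fresh members after thinning. The lowest range held 1 fresh and 5 cryopreserved KRT3 UMIs and 1 fresh RHBG UMI before these steps. As sums of 0 were set to 3 UMIs, no change of direction is read from either gene. Depth limits the rarest genes most, since 3 UMIs equal 1.82 CPM in fresh and 1.253 CPM in cryopreserved members.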
